A study of Mus musculus with 4 samples.

Results

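Late cornified envelope (Lce) genes lie side by side in the epidermal differentiation complex and encode small proteins that are crosslinked into the cornified envelope, the protein shell that replaces the plasma membrane of a dying keratinocyte. They are used last in keratinocyte differentiation, after keratin filaments and the first envelope proteins have been made. In humans, group 1 genes are expressed in normal skin, and group 3 genes are low there and appear in stratified epithelia inside the body and in injured or inflamed skin. The 10 genes described here are 4 Lce1 genes (Lce1e, Lce1f, Lce1h and Lce1l) and the 6 Lce3 genes (Lce3a to Lce3f), out of 21 Lce genes and 32285 genes listed. They were selected on measured values of these same sections, so every difference between sections given below is a description and none is a test.

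Transcripts were counted on 10x Visium arrays, which carry barcoded spots under the tissue, and each transcript caught on a spot counts as 1 unique molecular identifier (UMI). The 4 sections came from flash-frozen tissue of wildtype mice: oral mucosa at postoperative day 4, oral mucosa that was not wounded, facial skin at postoperative day 4, and facial skin labelled unwounded. Every group was 1 section, so there was no replicate and no p-value, and 95% intervals below cover counting error only. Neither the age and strain of the animals nor the way wounds were made is given in the labels. A spot can hold several cells of different types, so fewer keratinocytes and less RNA per keratinocyte cannot be told apart.

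The sections differed before any Lce gene was considered. They held 3004174 UMIs on 430 spots (oral, day 4), 7285023 on 1288 (oral, unwounded), 9934290 on 1141 (facial, day 4) and 11939479 on 671 (facial, labelled unwounded). In the unwounded oral section 652 spots held under 100 UMIs each. Mitochondrial transcripts made up 11.9% and 20.8% of UMIs in the day 4 and unwounded oral sections and 2.75% and 2.71% in the facial ones. All 7 skeletal muscle markers were called higher in oral mucosa at day 4 and unwounded, where 11.5% and 10.1% of all measured genes were. Xist had 84 and 909 UMIs in the day 4 oral and facial sections and 0 and 1 in the unwounded ones, whereas the Y-linked gene Ddx3y had 0 and 0 UMIs at day 4 and 280 and 587 unwounded, so that wounding and the sex of the animal cannot be told apart. Spot barcodes are shared between arrays by design, and any 2 sections had 46 to 347 of them in common.

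The facial section labelled unwounded held more neutrophil marker and Il1b transcripts than facial skin at day 4. Of 7 wound keratinocyte markers 5 were called lower at day 4, where 8.59% of all measured genes were. The summed level of 6 neutrophil markers, in UMIs scaled to a common section total (CPM), was 237 CPM in facial skin at day 4, against 5883 CPM in facial skin labelled unwounded, and the oral sections had 3758 CPM at day 4 and 31.0 CPM unwounded. Spots in which at least 0.5% of UMIs came from these markers numbered 88 and 0 in the day 4 and unwounded oral sections, 3 in facial skin at day 4 and 158 in facial skin labelled unwounded, where they held 22.7% of the UMIs. They are called neutrophil-rich after the list. S100a8 alone had 1752 CPM in oral mucosa at day 4 and 3028 CPM in facial skin labelled unwounded. Cxcr2, Csf3r and Retnlg had 21, 55 and 81 UMIs in the first and 360, 439 and 174 in the second. Whether neutrophils or keratinocytes made the S100a8 was not tested, and leaving these spots out also removes wound keratin UMIs. The section label is kept as given. Member levels and many, but not all, list counts are also given without these spots in any section where that ends a call or turns a direction. Keratins identified epithelium in every section: 10 keratins made up 3.80% and 4.76% of oral UMIs at day 4 and unwounded, and 4.21% and 3.41% of facial UMIs. The oral keratins Krt13 and Krt4 had 18364 and 10229 CPM in oral mucosa at day 4, against 0.604 and 0.705 CPM in facial skin at day 4.

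All 10 members are protein-coding genes within 286 kb of mouse chromosome 3 (GRCm38.p6, chr3:92707400-92993426), and the 6 Lce3 genes form an unbroken run of 68.1 kb. RefSeq's promoter table holds 9 of the 10 (Lce1f is named only). The stretches below run from 60 bases before to 20 bases after the annotated start. They are shown because they set Lce1e and Lce1h beside Lce3 genes and hold the most alike pair of Lce3 genes. Capitals mark ATAAAA, read on the strand of the gene.
Lce1e (chr3:92709055-92709134, minus strand): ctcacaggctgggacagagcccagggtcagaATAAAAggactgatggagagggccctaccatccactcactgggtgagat
Lce1h (chr3:92765046-92765125, minus strand): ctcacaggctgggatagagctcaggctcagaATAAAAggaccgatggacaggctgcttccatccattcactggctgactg
Lce3a (chr3:92926211-92926290, minus strand): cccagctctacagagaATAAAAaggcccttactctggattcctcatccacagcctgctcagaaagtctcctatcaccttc
Lce3b (chr3:92932919-92932998, plus strand): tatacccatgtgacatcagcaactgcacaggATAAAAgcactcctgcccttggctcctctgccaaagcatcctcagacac
Lce3c (chr3:92944426-92944505, plus strand): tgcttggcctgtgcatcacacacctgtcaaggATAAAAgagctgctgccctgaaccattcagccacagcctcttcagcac
Lce3d (chr3:92957330-92957409, plus strand): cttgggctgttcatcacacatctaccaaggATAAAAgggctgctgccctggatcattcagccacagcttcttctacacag
Lce3e (chr3:92967001-92967080, plus strand): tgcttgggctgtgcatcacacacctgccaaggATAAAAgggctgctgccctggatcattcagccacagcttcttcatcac

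ATAAAA began 28 to 44 bases before the start in all 9 members with a sequence, and 28 to 30 bases before it in all but Lce3a. In a window from 50 to 20 bases before the start it was present in 18 of 20 Lce promoters and in 728 of 32851 mouse promoters of the table (2.22%); it was picked after these sequences were seen. Aligned on ATAAAA over 70 bases, Lce3d and Lce3e were identical at 66 bases (94.3%) and Lce3c and Lce3e at 64 (91.4%), whereas pairs of an Lce1 and an Lce3 gene shared 32.9% to 47.1%. Lce1e and Lce1h shared 84.3% of bases. Lce1l shared 44.3% with Lce1e and 45.7% with Lce1h, within the range of pairs between the classes. Its highest identity, 47.1%, was with Lce3b, Lce3e and Lce3f. Lce3a and Lce3b stood apart from the other Lce3 genes, with 62.9% identity at most between Lce3b and Lce3c or Lce3e.

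A search of both strands of the whole 300-base promoters for 10 short motifs gave few matches. The AP-1 motif TGANTCA, the CACCC box CCACCC bound by KLF factors and the grainyhead motif AACCNGTT were in 0 of 9 member promoters, against 7.81%, 31.5% and 2.09% of all promoters. The ETS motif GGAAGT was in Lce1e, Lce1h and Lce3a (3 of 9, against 23.8% of all promoters). In Lce1e and Lce1h it lay on the opposite strand, at positions −210 and −207 from the start. The C/EBP motif TTGCNNAA was in Lce3f alone among the 9 (10.8% of all promoters), the STAT motif TTCNNNGAA (8.30%) and the TEAD motif CATTCC (14.7%) in Lce1l alone, the octamer-type motif ATGCAA in Lce1h alone (10.7%), the GATA motif AGATAA in Lce1e alone (11.2%) and TATAAA in Lce3e alone (13.6%), far from its start. The motifs were not chosen for overlap with one another, and a match is only the presence of these letters.

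The 2 classes showed opposite tissue patterns. Lce3 members summed to 4722 CPM (95% interval 4644 to 4800) in oral mucosa at day 4 and 5872 CPM (5816 to 5928) in unwounded oral mucosa, against 385 CPM (373 to 397) in facial skin at day 4 and 1031 CPM (1013 to 1050) in facial skin labelled unwounded. Lce1 members summed to 464 CPM (440 to 489) and 335 CPM (322 to 349) in the day 4 and unwounded oral sections, against 2053 CPM (2025 to 2081) and 1043 CPM (1025 to 1061) in the day 4 and unwounded facial ones. Lce1 genes thus supplied 8.95% of the members' UMIs in oral mucosa at day 4 and 5.40% unwounded, and 84.2% in facial skin at day 4 and 50.3% in facial skin labelled unwounded. Without the neutrophil-rich spots the share in that last section was 58.6%. A share within a section does not depend on how section totals are scaled.

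**Figure D1:**
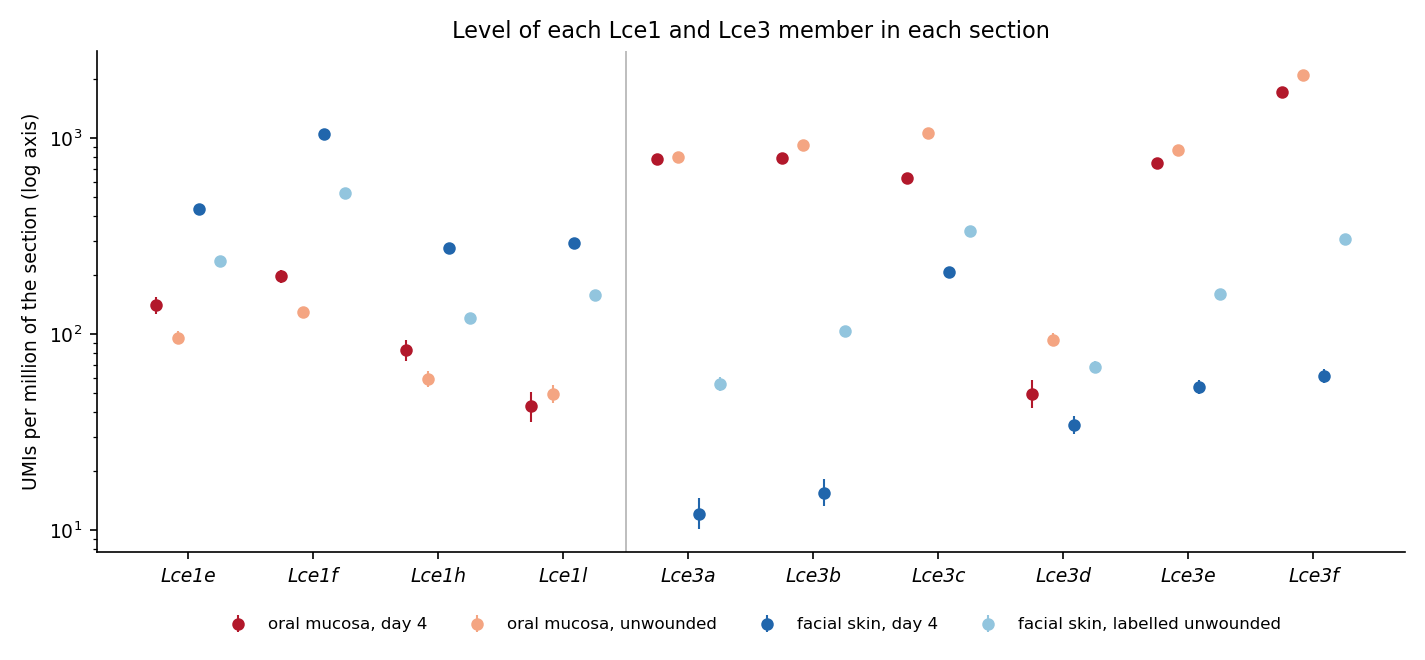
Level of each member in each section, in CPM on a log axis; points are single sections and bars are exact 95% Poisson intervals. The 4 Lce1 genes are higher in both facial sections than in both oral ones, and 5 of the 6 Lce3 genes are higher in both oral sections, Lce3a by the most; Lce3d lies between 34.5 and 93.9 CPM in all 4.

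Among the Lce1 members, Lce1f was the most abundant in every section. It had 198 CPM in oral mucosa at day 4 and 130 CPM unwounded, against 1052 CPM in facial skin at day 4 and 527 CPM in facial skin labelled unwounded. Lce1e had 141 and 96.1 CPM in the day 4 and unwounded oral sections, against 434 and 236 CPM in the facial ones. Both genes were lower in each oral section than in each facial section. Lce1h had 82.9 and 59.4 CPM in oral mucosa at day 4 and unwounded, against 276 and 121 CPM in facial skin. Lce1l was the scarcest in oral mucosa, with 42.9 CPM at day 4 (27.9 CPM outside neutrophil-rich spots) and 49.7 CPM unwounded, against 292 and 159 CPM in facial skin. Lce1f held 42.6% and 38.8% of the Lce1 members' UMIs in the oral sections at day 4 and unwounded, and 51.2% and 50.6% in the facial ones.

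The Lce3 members differed widely in how far the tissues stood apart. Lce3a had 784 and 803 CPM in oral mucosa at day 4 and unwounded, against 12.2 CPM in facial skin at day 4 and 55.9 CPM in facial skin labelled unwounded. That was 64.4-fold higher in oral mucosa at day 4 (log2 6.01, 5.74 to 6.28) and 14.4-fold higher unwounded (log2 3.85, 3.73 to 3.96), or 31.1-fold unwounded without the neutrophil-rich spots. Lce3b had 792 and 930 CPM in oral mucosa, against 15.6 and 104 CPM in facial skin, a difference of 50.8-fold at day 4 and 8.97-fold unwounded, or 21.7-fold unwounded without such spots. Lce3f was the most abundant member in oral mucosa, with 1720 CPM at day 4 and 2109 CPM unwounded, against 61.3 and 307 CPM in facial skin (199 CPM without such spots in the section labelled unwounded).

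Lce3e stood between these and the remaining pair, with 750 and 870 CPM in oral mucosa at day 4 and unwounded, against 54.1 and 161 CPM in facial skin (105 CPM outside neutrophil-rich spots). Lce3c had 626 and 1066 CPM in oral mucosa, against 207 and 335 CPM in facial skin, 3.02-fold higher at day 4 and 3.18-fold unwounded (4.97-fold without the neutrophil-rich spots). Lce3d was low everywhere, with 49.6 and 93.9 CPM in oral mucosa and 34.5 and 67.9 CPM in facial skin, and its 1.44-fold and 1.38-fold differences fell short of the 1.5-fold needed for a call. Outside neutrophil-rich spots Lce3d was called higher in unwounded oral mucosa, at log2 1.09, and its log2 ratio at day 4 was −0.07. Lce3d and Lce3e, the pair with the most alike start regions printed above, therefore differed in tissue ratio by 1.44-fold against 13.9-fold at day 4.

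The order of the Lce3 genes changed between tissues. Lce3c supplied 53.9% of the Lce3 UMIs in facial skin at day 4 (52.3% to 55.4%), followed by Lce3f with 15.9% and Lce3e with 14.0%, whose intervals overlap. In facial skin labelled unwounded Lce3c held 32.5% and Lce3f 29.8%. In oral mucosa Lce3f led with 36.4% at day 4 and 35.9% unwounded, and Lce3c held 13.3% and 18.1%. Lce3a and Lce3b were the least abundant Lce3 genes of facial skin at day 4, at 3.16% and 4.05%, whereas each held 13.7% to 16.8% in the oral sections. The intervals of Lce3a and Lce3b overlapped in oral mucosa at day 4 and were apart unwounded.

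**Figure D2:**
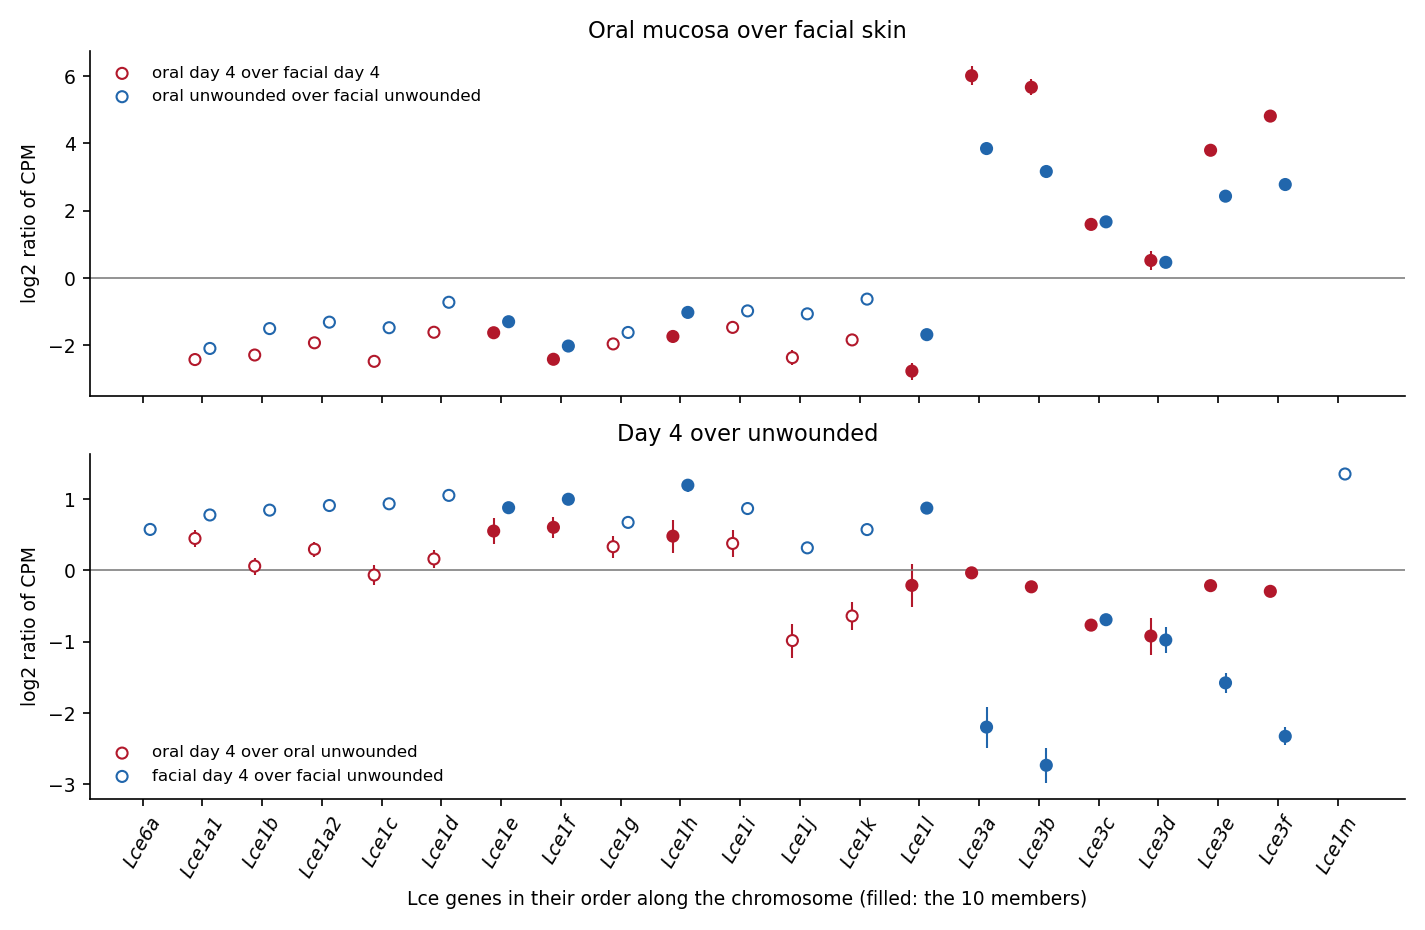
Log2 ratio of CPM for the Lce genes in their order along the chromosome, oral over facial (upper panel) and day 4 over unwounded (lower panel); bars are 95% intervals of counting error, filled points are the 10 members, and genes with 20 or fewer UMIs in a section are left out. Oral-over-facial ratios lie below 0 for the Lce1 genes shown (with TMM scaling, Lce1d and Lce1k turn above 0 unwounded) and above 0 for the Lce3 genes, and the facial wound ratios of Lce3a, Lce3b, Lce3e and Lce3f lie below the oral ones.

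A call of higher or lower required a CPM ratio of at least 1.5 with 95% intervals that did not overlap, and 20 UMIs or more in the pair of sections; all 10 members passed that minimum in every comparison. Between oral mucosa and facial skin at day 4, 5 of 6 Lce3 members were called higher (all but Lce3d), where 11.5% of all 13633 measured genes were called higher, and 4 of 4 Lce1 members were called lower, where 35.5% were. Between the unwounded sections the same 5 Lce3 members were called higher against 10.1% of 14026 genes, and 4 of 4 Lce1 members were called lower against 59.7%. Since the members were selected on these values, nothing is read from the shares. The call of lower is common in oral mucosa: the median log2 ratio over all measured genes was −0.27 at day 4 and −0.47 unwounded, with 10 CPM added to both sides. TMM scaling, which raises these 2 log2 ratios by 0.36 and 0.76, turned the genes called higher and lower into 2345 and 2535 at day 4 (1563 and 4841 without it) and 2852 and 3794 unwounded (1411 and 8375). Under it Lce3d was called higher in both comparisons, and Lce1e and Lce1h, at log2 −0.53 and −0.26, were no longer called lower in the unwounded one.

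The other Lce genes went the way of the Lce1 members: 11 of 11 were called lower in oral mucosa both at day 4 and unwounded, where 35.5% and 59.7% of all genes were. With TMM scaling 11 were called lower at day 4 and 6 unwounded, where 18.6% and 27% of all genes were. Unwounded, Lce1d and Lce1k then turned direction, at log2 0.046 and 0.14. The 4 most abundant were Lce1a1, Lce1b, Lce1a2 and Lce1c. Lce1a1 had 325 and 239 CPM in oral mucosa at day 4 and unwounded, against 1740 and 1016 CPM in facial skin. Lce1b had 276 and 265 CPM, against 1345 and 749 CPM. Lce1a2 had 354 and 289 CPM, against 1343 and 715 CPM, and Lce1c had 181 and 190 CPM, against 1007 and 527 CPM. The genes at the ends of the cluster, chosen after their values were seen, were low in oral mucosa: Lce6a had 0 and 1 UMIs in oral mucosa, against 2244 and 1812 in facial skin, at least 226-fold lower at day 4 against a floor of 3 UMIs per section. Lce1m, which lies beyond Lce3f, had 11 and 13 UMIs in oral mucosa, against 6301 and 2969 in facial skin. With all 14 Lce1 genes counted against the 6 Lce3 genes, the Lce1 share was 32.6% and 25.6% in the oral sections and 96.5% and 84.7% in the facial ones. How reads that fit several of these near-identical genes were assigned is not stated in the labels or headers, so values of single Lce1 genes are less certain than their sum.

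The summed tissue difference remained when the members were set against keratin UMIs or keratin-rich spots rather than against all transcripts. The 10 keratins include Krt13 and Krt4, which were nearly absent from facial skin at day 4. The list was 3.41-fold and 2.06-fold higher at the edge in the oral sections but 0.917-fold and 0.987-fold in the facial ones. Keratin UMIs may therefore stand for unlike layers of epithelium in the 2 tissues. Per 100 UMIs of the 10 keratins there were 12.4 and 12.3 Lce3 UMIs in oral mucosa at day 4 and unwounded, against 0.915 and 3.03 in facial skin. Lce1 members gave 1.22 and 0.704 per 100 keratin UMIs in oral mucosa, against 4.88 and 3.06 in facial skin. In spots with at least 5% keratin UMIs, Lce3 members reached 13695 and 13682 CPM in oral mucosa, against 544 and 1529 CPM in facial skin. The Lce1 members came closer in such spots at day 4, with 1375 CPM in oral mucosa against 1897 CPM in facial skin, and there Lce1e and Lce1h turned direction, at log2 0.13 and 0.095 for oral over facial skin. That limit kept 93.8% of the Lce1 UMIs of oral mucosa at day 4 but 39.3% of those of facial skin. At a limit of 2%, which kept 97.1% and 94.0%, Lce1 members had 1060 CPM in oral mucosa against 2720.5 CPM in facial skin. The summed tissue differences kept their direction without any single part of a section but moved in size; each section was divided in 4 by the median row and the median column of its spots. At day 4 the Lce1 log2 ratio of −2.14 was −4.27 without part 2 of the oral section and −1.40 without its part 3, and the Lce3 log2 ratio of 3.62 was 2.58 and 4.27. Unwounded, the Lce3 log2 ratio of 2.51 was 1.89 without part 3 of the oral section and 3.27 without part 2 of the facial one.

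In facial skin the 2 classes went opposite ways between day 4 and the section labelled unwounded. Lce1 members were higher at day 4, 1.97-fold in sum (log2 0.98, 0.94 to 1.01), and 4 of 4 were called higher, where 6.09% of all 14231 measured genes were. Lce3 members were lower at day 4, 2.68-fold in sum (log2 −1.42, −1.47 to −1.37), and 6 of 6 were called lower, where 8.59% of genes were. Lce1h differed most among Lce1 members, with 276 CPM at day 4 against 121 CPM (2.29-fold). Lce3b differed most among Lce3 members, with 15.6 CPM at day 4 against 104 CPM (6.65-fold lower), followed by Lce3f at 5.02-fold and Lce3a at 4.59-fold. Lce3c, with 207 CPM at day 4 against 335 CPM, differed least, at 1.62-fold.

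This contrast moves with the neutrophil markers. The neutrophil-rich spots of the section labelled unwounded held 52.7% of its Lce3 UMIs and 33.9% of its Lce1 UMIs, and 68.1% of the Lce3b and 64.3% of the Lce3a UMIs. Inside them Lce3 members had 2390 CPM and Lce1 members 1554 CPM, and outside them 632 and 893 CPM. Without such spots in either section the log2 ratio of Lce3 members was −0.76 and that of Lce1 members 1.20. Of the defining neutrophil genes, facial skin at day 4 held S100a8 at 74.4 CPM, Csf3r at 64 UMIs and Cxcr2 at 102 UMIs, against 3028 CPM, 439 UMIs and 360 UMIs in the section labelled unwounded. The difference in summed Lce3 was smaller but had the same sign without these spots. Among single genes Lce3f (log2 −1.74), Lce3b (−1.49), Lce3a (−1.09) and Lce3e (−1.02) stayed lower at day 4 without them, whereas Lce3c, at −0.09, and Lce3d, at −0.43, no longer differed 1.5-fold. The other differences between the animals were not tested. With part 2 of the section labelled unwounded dropped, the Lce3 log2 ratio was −0.66 and that of Lce3d turned to 0.074.

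In oral mucosa the differences between day 4 and unwounded were small and depended on the part of the section. Lce1 members were 1.38-fold higher in sum at day 4 (log2 0.47, 0.37 to 0.57), and only Lce1f was called higher, at 198 CPM against 130 CPM (1.52-fold), where 20.6% of all 12544 measured genes were called higher. Lce3 members were 1.24-fold lower in sum (log2 −0.31, −0.34 to −0.28), and Lce3c and Lce3d were called lower, 1.70-fold and 1.89-fold, where 3.56% of genes were. With the neutrophil-rich spots left out, the log2 ratio was −1.59 for Lce3d and −0.84 for Lce1l, which was then called lower. Lce3a, with 784 CPM at day 4 against 803 CPM, had an interval of log2 −0.10 to 0.03. TMM scaling lowers these log2 ratios by 0.34, ended the call of Lce1f and added Lce3f to the lower genes, while the genes called over all became 1290 higher and 1213 lower (2581 and 446 without it). The Lce1 value was −1.66 without part 2 of the day 4 section, 1.22 without its part 3 and −0.06 when part 4 of unwounded oral mucosa was dropped. The Lce3 value was −1.36 without part 2 of the day 4 section, 0.34 without its part 3 and 0.31 when part 3 of unwounded oral mucosa was dropped. Averaged over spots instead of summed, the Lce1 difference was log2 −0.71, and per keratin UMI the Lce3 difference was log2 0.011.

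The separate pieces of tissue on an array differed as well. At day 4 the smaller oral piece of 67 spots held 11194 CPM of Lce3 and 1278 CPM of Lce1, and the larger piece of 288 spots 2793 and 218 CPM. Keratins made up 6.82% and 2.92% of their UMIs, and the neutrophil markers 519 and 4767 CPM. The 2 pieces of unwounded oral mucosa had 8828 and 4323 CPM of Lce3 at keratin shares of 7.37% and 3.42%. The Lce1 share of member UMIs was 10.2% and 7.24% in the day 4 oral pieces, 5.46% and 5.52% in the unwounded ones, 76.8% and 87.4% in the facial pieces at day 4, and 59.1% and 49.0% in the facial pieces labelled unwounded. Every oral piece thus lay below every facial piece in this share.

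**Figure D3:**
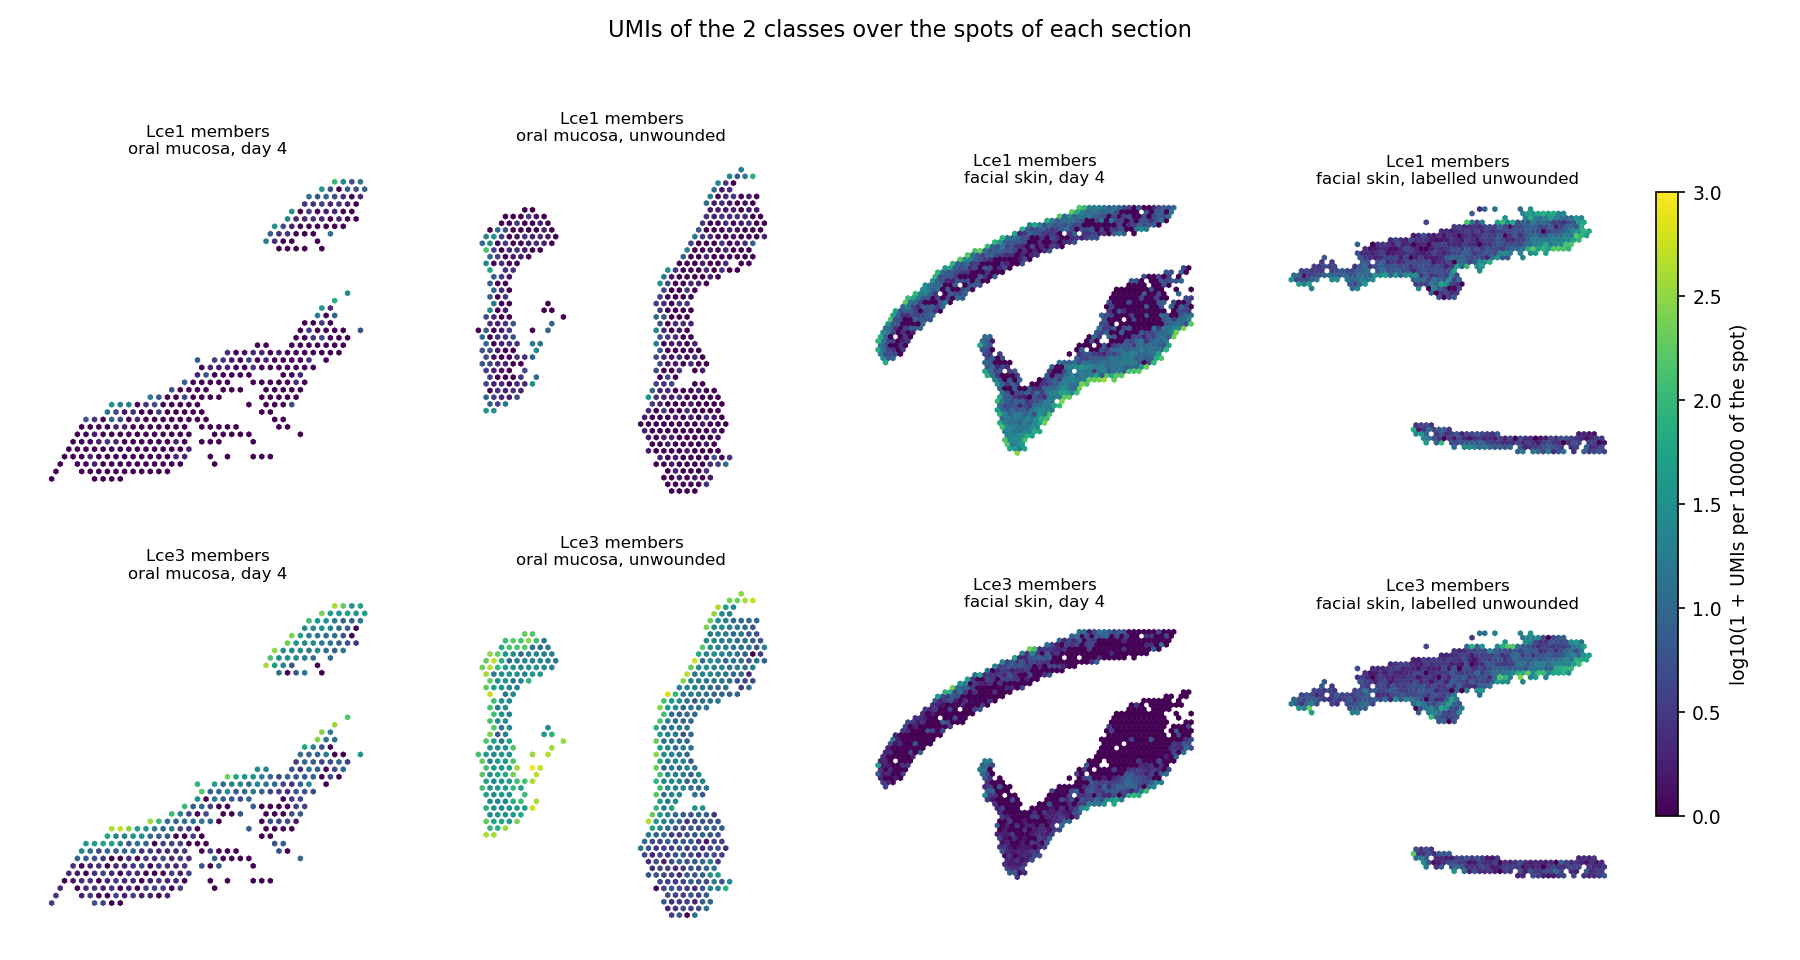
UMIs of the summed Lce1 members (upper row) and Lce3 members (lower row) per 10000 UMIs of each spot with at least 1000 UMIs, on a shared log10 colour scale; panels are drawn at separate magnifications. High spots of both classes lie largely at the margins of the tissue, and in facial skin labelled unwounded some lie inside it. Lce3 is brighter in the oral sections and Lce1 in facial skin at day 4.

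Both classes were concentrated in edge spots. Edge spots were defined as those with fewer than 6 neighbours among spots with at least 1000 UMIs. Spots at the border of the array or beside spots with fewer UMIs therefore count as edge too. In oral mucosa they made up 51.5% of such spots at day 4 and 42.8% unwounded and held 90.6% and 76.7% of the Lce3 UMIs, and 93.6% and 85.5% of the Lce1 UMIs. In facial skin at day 4 the 38.1% of spots at the edge held 67.0% of Lce3 and 67.8% of Lce1 UMIs, and in facial skin labelled unwounded the 43.2% at the edge held 63.1% and 59.2%. Without the neutrophil-rich spots the edge was 40.4% of the spots of that last section and held 49.3% and 53.3%. Levels at the edge exceeded inner levels 10.6-fold for Lce3 and 16.1-fold for Lce1 in oral mucosa at day 4, 4.77-fold and 8.50-fold in unwounded oral mucosa, 4.07-fold and 4.22-fold in facial skin at day 4, and 2.42-fold and 2.05-fold in facial skin labelled unwounded (1.49-fold and 1.75-fold without the neutrophil-rich spots). The keratin list was 3.41-fold and 2.06-fold higher at the edge in the oral sections but 0.917-fold and 0.987-fold in the facial ones. Among the members in facial skin at day 4, Lce3d was the most confined to the edge, with 76.0% of its UMIs there, and Lce3e the least, with 63.0%.

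A few spots carried most of the transcripts. The top 10% of spots by UMIs of a member class held 88.1% of Lce3 and 93.8% of Lce1 UMIs in oral mucosa at day 4, 68.8% and 83.7% unwounded, 77.9% and 69.2% in facial skin at day 4, and 68.4% and 62.2% in facial skin labelled unwounded. Shares of spots with a UMI follow depth, which had medians of 6657, 13797, 5658 and 16467 UMIs in the same order, and carry a background. Spots with under 0.5% keratin UMIs still held an Lce3 UMI in 99 of 164 cases in oral mucosa at day 4 and in 78 of 79 unwounded, at medians of 7341 and 16156 UMIs. The level in those spots was 152 and 338 CPM of Lce3, far below the sections' 4722 and 5872 CPM, and in facial skin at day 4 it was 27.6 CPM of Lce3 and 142 CPM of Lce1. Expected shares after thinning each spot to 1000 UMIs were 43.9% and 73.6% for Lce3 in oral mucosa at day 4 and unwounded, against 14.3% and 39.1% in facial skin (77.3%, 99.4%, 45.4% and 97.7% without thinning). For Lce1 they were 9.69% and 13.6%, against 42.9% and 41.7% (28.5%, 49.5%, 74.5% and 96.6% without thinning).

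**Figure D4:**
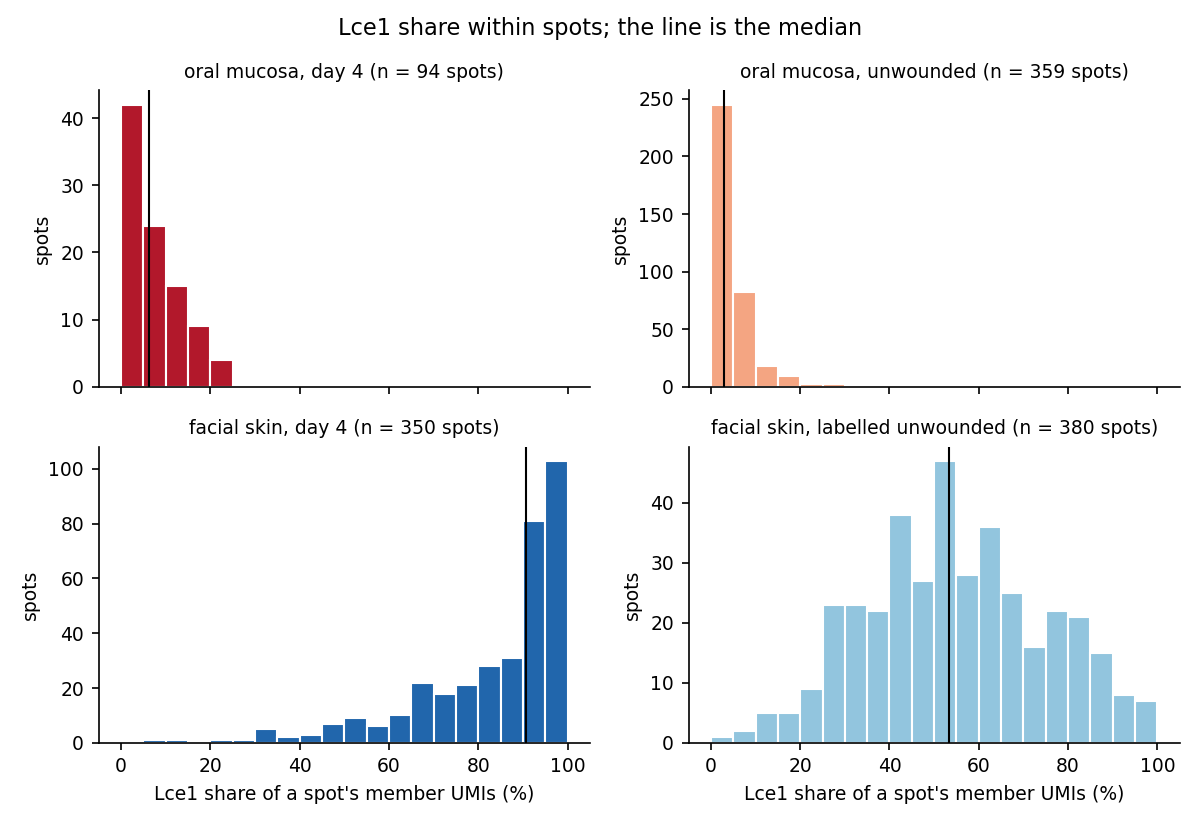
Lce1 share of the member UMIs of single spots with at least 10 of them, as counts of spots per 5-point bin; the line is the median of each section. Spots of oral mucosa lie at 30% or lower, those of facial skin at day 4 gather near 100% with a median of 90.7%, and those of facial skin labelled unwounded spread on both sides of 50%.

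The class balance held at the level of single spots. Among spots with at least 10 member UMIs, the Lce1 share had a median of 6.25% in 94 spots of oral mucosa at day 4 and 2.86% in 359 spots of unwounded oral mucosa, against 90.7% in 350 spots of facial skin at day 4 and 53.3% in 380 spots of facial skin labelled unwounded. No oral spot exceeded 50%, and the highest were 22.2% at day 4 and 30% unwounded. In facial skin at day 4, 325 spots lay above 50% and 21 below it, and in facial skin labelled unwounded 204 lay above and 155 below (158 and 91 without the neutrophil-rich spots). The scarcer class of a section was seldom found alone. An Lce3 UMI was present in 99.4% of the spots of unwounded oral mucosa, so few could hold Lce1 alone. The counts that follow are therefore not read as shared expression. In oral mucosa 100 spots held both classes at day 4, 4 only Lce1 and 182 only Lce3, and unwounded 259 held both, 0 only Lce1 and 261 only Lce3. In facial skin 464 spots held both at day 4, 353 only Lce1 and 34 only Lce3, and 617 held both in the section labelled unwounded, 14 only Lce1 and 21 only Lce3.

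Across spots the members of a class varied together, and in facial skin at day 4 Lce3c had a higher r with Lce1 than the other Lce3 genes had. Correlations are Pearson's r of log-scaled UMIs per 10000 across spots with at least 1000 UMIs, given as descriptions, since spots of a section share one library and differ in depth. Pairs of Lce1 members had a median r of 0.71 and 0.68 in oral mucosa at day 4 and unwounded and 0.74 and 0.71 in facial skin, and pairs of Lce3 members 0.75 and 0.82 in oral mucosa and 0.55 and 0.60 in facial skin. In facial skin at day 4 Lce3c had an r of 0.55 to 0.60 with the 4 Lce1 members, Lce3d, Lce3e and Lce3f 0.32 to 0.39, and Lce3a and Lce3b 0.11 to 0.18. Lce3a and Lce3b had an r of 0.67 with each other there, the highest among the Lce3 pairs, and their low r with Lce1 rests on 121 and 155 UMIs and is not read as a finding. Lce3c also had an r of 0.56 to 0.59 with Lce3d, Lce3e and Lce3f at day 4, and its 2060 UMIs there compare with 343 to 609 for those genes, so depth differs along with r. In facial skin labelled unwounded the medians with Lce1 were closer, at 0.55 for Lce3c, 0.50 for Lce3f, 0.47 for Lce3e, 0.42 for Lce3d and 0.38 for both Lce3a and Lce3b. In the oral sections all 6 Lce3 genes had medians of 0.57 to 0.67 with the Lce1 members.

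**Figure D5:**
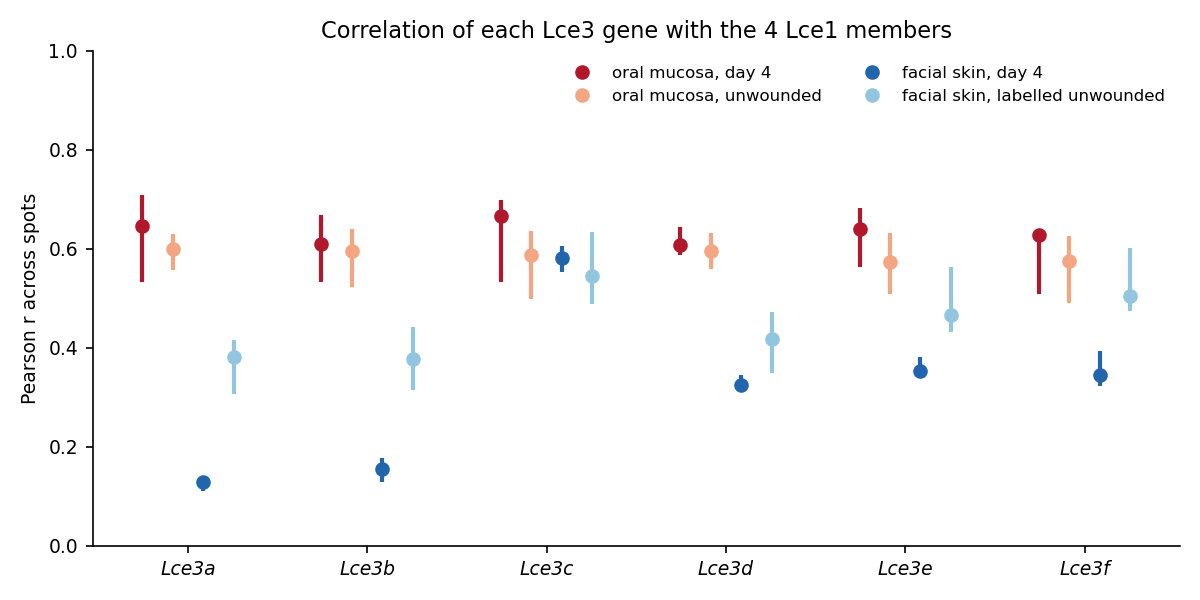
Pearson's r across spots between each Lce3 gene and the 4 Lce1 members; points are the median and bars the lowest and highest of the 4 values, by section. In facial skin at day 4 the median is 0.58 for Lce3c and 0.13 for Lce3a, whereas in oral mucosa all 6 genes lie between 0.57 and 0.67. The Lce3a value in facial skin at day 4 rests on 121 UMIs and is not read as a finding.

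The 5 genes outside the family with the highest r to each class were named in each section. For Lce3 in oral mucosa the highest r belonged to Lor, which encodes the envelope protein loricrin, at 0.84 at day 4 and 0.95 unwounded, followed by Crct1 at 0.83 and 0.91. At day 4 Sprr3, Krt4 and Krt13 came next, each at 0.82, and unwounded Rptn, the envelope precursor repetin, Fam25c and Asprv1, a protease that processes filaggrin, at 0.90 to 0.91. For Lce3 in facial skin the leaders were Rptn (0.69), 2310046K23Rik (0.66), Trex2 (0.64), Klk9 (0.63) and Cnfn (0.63) at day 4, and Cnfn (0.78), Asprv1 (0.75), Klk9 (0.74), Flg (0.74) and Crct1 (0.73) in the section labelled unwounded. Cnfn encodes the envelope protein cornifelin and Klk9 a kallikrein-related peptidase.

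For Lce1 in facial skin Lor led with 0.82 at day 4 and 0.86 in the section labelled unwounded. Flg, which encodes filaggrin, Kprp, Calm4 and Asprv1 followed at 0.78 to 0.79 at day 4, and 2310050C09Rik (0.85), Kprp (0.81), Asprv1 (0.80) and Crct1 (0.79) in the other section. For Lce1 in oral mucosa the leaders were Fetub (0.75), Hrnr (0.74), Asprv1 (0.74), Defb4, a beta-defensin (0.74), and Rptn (0.72) at day 4, and Kprp (0.76), Fetub (0.73), Csta1 (0.71), Asprv1 (0.71) and Cdsn (0.70) unwounded. Of the wound keratins, Krt17 had an r of 0.013 and −0.018 with Lce1 in oral mucosa and facial skin at day 4, and 0.21 and 0.019 with Lce3. Krt6a had 0.28 and 0.21 with Lce1, and 0.55 and 0.41 with Lce3.

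The enzymes that crosslink the envelope did not follow one class. Transglutaminase 3 (Tgm3) resembled Lce3 in tissue: it had 1103 CPM in oral mucosa at day 4 and 1125 CPM unwounded, against 55.9 and 84.4 CPM in facial skin, and its r with Lce3 across oral spots was 0.78 and 0.83. Tgm1 had 155 CPM in oral mucosa at day 4 against 67.7 CPM in facial skin, and Tgm5 had 9.32 CPM against 31.8 CPM. Of the 4 transglutaminases, 3 were called higher and 1 lower in oral mucosa at day 4, and 2 higher and 1 lower unwounded. All-gene shares for higher and lower were 11.5% and 35.5% at day 4 and 10.1% and 59.7% unwounded. Tgm1 and Tgm3 were called lower in facial skin at day 4 against facial skin labelled unwounded, where 8.59% of all genes were. Tgm1 was called higher in oral mucosa at day 4 against unwounded, where 20.6% were. With TMM scaling Tgm3 lost its call in facial skin, and Tgm1 lost its call between the oral sections. There 1 transglutaminase was then called lower, where 9.67% of all genes were. Without the neutrophil-rich spots 0 of 4 were called between day 4 and unwounded in either tissue, and Tgm1, at 85.2 CPM in oral mucosa at day 4 against 67.7 CPM in facial skin, was no longer called.

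Of 17 other envelope precursors measured, 2 were called higher and 11 lower in oral mucosa at day 4, where 11.5% and 35.5% of all genes were, and 2 higher and 9 lower unwounded, where 10.1% and 59.7% were. In CPM the unwounded count of lower genes was thus no larger than that of all genes in proportion. With TMM scaling 3 were higher and 11 lower at day 4, where 17.2% and 18.6% of all genes were. Unwounded, 6 were then higher and 7 lower, where 20.3% and 27% were. With that scaling the unwounded count of lower genes was larger than that of all genes in proportion. Without the neutrophil-rich spots the unwounded counts were 4 and 8, where 9.53% and 61.6% of all genes were. Involucrin (Ivl) had no UMI in either oral section, which allows up to 0.999 CPM at day 4 and 0.412 CPM unwounded, against 244 and 237 CPM in facial skin. Flg had 29.0 and 1.37 CPM in oral mucosa, against 4710 and 3374 CPM. Between facial skin at day 4 and labelled unwounded, 4 of 17 were called higher and 3 lower, where 6.09% and 8.59% of all genes were. Among the called precursors were Lor with 8675 CPM against 5169 CPM and Cnfn with 486 CPM against 799 CPM. Leaving out the neutrophil-rich spots, 7 were higher and 1 lower, where 4.68% and 10.1% of all genes were, and Cnfn and Rptn were no longer called. Between oral mucosa at day 4 and unwounded, 20.6% of all genes were called higher and 3.56% lower. Of 15 precursors measured there, 1 was called higher (Flg) and 2 lower (Rptn, with 2210 CPM against 3771 CPM, and Hrnr). With TMM scaling 7 were lower, or 3 without the neutrophil-rich spots, where 9.67% and 3.23% of all genes were.

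The small proline-rich (Sprr) envelope genes were called lower at day 4 in facial skin, as Lce3 members were, and higher at day 4 in oral mucosa. In facial skin at day 4, 8 of 11 measured were called lower than in the section labelled unwounded and 0 higher, where 8.59% and 6.09% of all genes were. Their median log2 ratio was −0.74 against −0.03 over all genes. Sprr2i had 2.32 CPM against 52.7 CPM and Sprr2e 5.44 CPM against 80.6 CPM. Without the neutrophil-rich spots 6 were lower and 1 higher, where 10.1% and 4.68% of all genes were. Sprr2i was then at 2.02 CPM against 23.2 CPM and Sprr2e at 4.94 CPM against 39.6 CPM. In oral mucosa at day 4, 9 of 13 were called higher than unwounded (6 with TMM scaling) and 0 lower, with a median of 0.73 against 0.17 over all genes. Of all genes 20.6% were called higher there (10.3% with TMM scaling). Sprr2f had 138 CPM at day 4 against 3.02 CPM and Sprr2d 203 CPM against 5.77 CPM, while Lce3 members were 1.24-fold lower. These oral values turn on the neutrophil-rich spots. Without them 2 of 11 were higher and 3 lower, where 12.6% and 3.23% of all genes were. Sprr2f then had 12.7 CPM at day 4 and Sprr2d 18.1 CPM. Sprr3, the family member of internal epithelia, had 2888 and 2294 CPM in oral mucosa, against 0.201 and 0.251 CPM (2 and 3 UMIs) in facial skin.

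Among 19 enzymes of the granular layer and of barrier lipids, 13 were called lower and 1 higher in oral mucosa at day 4, where 35.5% of all genes were called lower, and 12 lower and 1 higher unwounded, where 59.7% were, a share close to that of the list. With TMM scaling 11 were lower and 2 higher at day 4, where 18.6% and 17.2% of all genes were. Unwounded, 7 were then lower and 4 higher, where 27% and 20.3% were. Without the neutrophil-rich spots 15 were lower and 1 higher at day 4, where 40.9% and 10.6% were. Unwounded, 11 were then lower and 2 higher, where 61.6% and 9.53% were. The one called higher in CPM over all spots was Klk14, a kallikrein-related peptidase. It had 489 and 478 CPM in oral mucosa, against 3.83 and 32.7 CPM in facial skin. Casp14, a caspase of cornification, had 5.66 and 5.63 CPM in oral mucosa, against 473 and 462 CPM. Facial skin at day 4 had 3 of the 19 enzymes called higher and only Klk14 lower than in the section labelled unwounded, where 6.09% and 8.59% of all genes were. In oral mucosa at day 4 against unwounded, 0 were called higher and 1 lower (3 with TMM scaling and 5 without the neutrophil-rich spots), Aloxe3, at 48.6 CPM against 79.2 CPM. Of all genes 20.6% were called higher and 3.56% lower in that comparison (9.67% lower with TMM scaling and 3.23% without those spots).

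Of 20 regulators of late differentiation, 14 were called lower and 3 higher in oral mucosa at day 4, and 17 lower and 1 higher unwounded, against all-gene shares of 35.5% and 59.7% for lower. With TMM scaling 11 were lower and 3 higher at day 4, and 13 lower and 2 higher unwounded, against all-gene shares of 18.6% and 27% for lower. Without the neutrophil-rich spots 15 were lower and 2 higher at day 4, and 15 lower and 1 higher unwounded. The all-gene shares for lower were then 40.9% and 61.6%. Gata3 had 3 and 4 UMIs in oral mucosa, against 1786 and 1313 in facial skin, and Pou2f3, an octamer factor of keratinocytes, 7 and 16 UMIs against 851 and 905. Fosl1, an AP-1 subunit, was called lower in facial skin at day 4 (8.05 CPM against 37.8 CPM) and higher in oral mucosa at day 4 (10.7 CPM against 3.16 CPM). Against all-gene shares of 6.09% higher and 8.59% lower, 1 regulator was higher and 3 lower in facial skin at day 4. Against shares of 20.6% and 3.56%, 4 of 19 were higher and 1 lower in oral mucosa at day 4. With TMM scaling those counts were 1 and 1 in facial skin, against 7.33% and 7.29% of all genes. In oral mucosa they were 1 and 2, against 10.3% and 9.67%. Without the neutrophil-rich spots they were 1 and 2 in facial skin, against 4.68% and 10.1%. In oral mucosa they were then 2 and 2, against 12.6% and 3.23%. Fosl1 in oral mucosa, at 5.49 CPM against 3.16 CPM, was no longer called without those spots.

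Among cytokines tied to Lce3 in inflamed skin, Il1b differed between day 4 and unwounded in the direction of the neutrophil markers. Il1b, which encodes interleukin-1 beta, had 11.0 CPM in facial skin at day 4 against 365 CPM in facial skin labelled unwounded, and 129 CPM in oral mucosa at day 4 against 0.961 CPM unwounded. In facial skin 3 of 6 measured were called lower at day 4 (Il1b, Il24 and Tnf), where 8.59% of all genes were, and Il1f8 and Il1f9, at log2 0.31 and −0.40, were not called. In oral mucosa 1 of 3 was called higher, where 20.6% of genes were. With TMM scaling 1 was higher and 1 lower there, against 10.3% and 9.67% of all genes. Without the neutrophil-rich spots 1 of 6 was called higher and 4 lower in facial skin, where 4.68% and 10.1% of all genes were. In oral mucosa 1 of 3 was then higher and 1 lower, against 12.6% and 3.23%. Outside neutrophil-rich spots Il1b had 10.2 CPM in facial skin at day 4 against 137 CPM, and 13.1 CPM in oral mucosa at day 4 against 0.961 CPM. Wound keratinocyte markers were called lower at day 4 in facial skin for 5 of 7 and higher at day 4 in oral mucosa for 5 of 7. Neutrophil markers were called lower for 6 of 6 and higher for 6 of 6, against all-gene shares of 8.59% and 20.6%. Krt16 had 1998 CPM in facial skin at day 4 against 4162 CPM, and 1357 CPM in oral mucosa at day 4 against 444 CPM. Without the neutrophil-rich spots the wound keratinocyte markers were 2 lower and 1 higher in facial skin, where 10.1% and 4.68% of all genes were. In oral mucosa they were 4 lower and 2 higher, where 3.23% and 12.6% were. There Krt16 turned to 263 CPM at day 4 against 444 CPM. With all spots summed, Lce3 levels were lower at day 4 in both tissues, but the oral difference turned direction when some parts of a section were left out. The part of the cells behind these markers in the Lce3 levels was not tested.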

How the data were processed

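The authors deposited raw UMI counts for each gene on each spot, with no normalization. Per the file headers they came from Space Ranger 1.3.1, and mm10 and Seurat are also named in the submitters' processing notes. No label or header names the annotation release. Only spots under tissue are listed, out of 4992 on an array, and none was dropped from the summed values.

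Counts were summed per section and scaled to CPM, with exact 95% Poisson intervals, exact conditional intervals for ratios and exact binomial intervals for shares. With 1 section per group no test was run. Spatial descriptions used spots with at least 1000 UMIs. TMM factors, computed with edgeR 4.0.16 in R 4.3.3, were 0.924 and 0.732 for the day 4 and unwounded oral sections and 1.19 and 1.24 for the facial ones. Other calculations used Python 3.11.15, NumPy 2.4.6, SciPy 1.17.1 and pandas 2.3.3. Calls and intervals were tried on simulated Poisson counts. These hold no variation between spots, parts of a section or animals, so they check the computation only. Of 165 list entries in 17 lists, 163 matched a symbol (Sprr2g and Il36a did not). Of symbols shared by several genes (38), the first was used.

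The members, lists and thresholds were chosen with earlier results of these data known. Named genes are all 10 members, the 4 most abundant other Lce genes, the 5 genes most alike per class and section, and at most 4 called genes per list and comparison, by size of log2 ratio; exceptions are said to be such or are markers, keratins and genes followed through the comparisons. Gene positions and promoters come from RefSeq (GRCm38.p6).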

Additional observations from a re-analysis of the deposited data

How the results depend on the processing

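With 1 section per group, counting intervals of the summed classes are far narrower than the differences between parts of a section. Depth is therefore not what limits the summed values, whereas some single members rest on few UMIs. No paired analysis was possible because each group holds 1 section. The log2 ratios below run in the order facial day 4 over facial unwounded, oral day 4 over oral unwounded, oral unwounded over facial unwounded, and oral day 4 over facial day 4, with main values of 0.98, 0.47, −1.64 and −2.14 for Lce1 and −1.42, −0.31, 2.51 and 3.62 for Lce3. TMM scaling gave 1.04, 0.13, −0.87 and −1.78 for Lce1, and −1.36, −0.65, 3.27 and 3.98 for Lce3. Leaving mitochondrial genes and each section's 50 most abundant genes out of the total gave 1.03, 0.26, −1.11 and −1.89, and −1.37, −0.53, 3.03 and 3.87. Per keratin UMI they were 0.67, 0.79, −2.12 and −2.00, and −1.73, 0.011, 2.03 and 3.76. As a mean over spots they were 0.38, −0.71, −2.01 and −3.10, and −1.81, −1.58, 2.54 and 2.77. In epithelial spots they were 0.33, 0.72, −0.86 and −0.46, and −1.49, 0.0014, 3.16 and 4.66. Those spots held 39.3% and 37.6% of the facial Lce1 UMIs at day 4 and unwounded, against 93.8% and 91.7% of the oral ones. With all Lce1 genes the log2 ratios were 0.88, 0.18, −1.50 and −2.20. Without neutrophil-rich spots, chosen after seeing the data, they were 1.20, 0.41, −1.41 and −2.20, and −0.76, −0.35, 3.22 and 3.62. Spots with at least 1000 UMIs gave values within the counting interval in all 8 cases.

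Leaving out 1 of 4 parts of either section gave ranges for Lce1 of 0.72 to 1.46, −1.66 to 1.22, −2.20 to −1.11 and −4.27 to −1.40, and for Lce3 of −1.69 to −0.66, −1.36 to 0.34, 1.89 to 3.27 and 2.58 to 4.27. Both oral wound values therefore turned direction with a part left out, with −0.06 for Lce1 without part 4 of the unwounded section and 0.31 for Lce3 without part 3 of it, and the cause was not tested. Of 600 alternative values of single members 5 changed the direction of a call: Lce1e (0.13) and Lce1h (0.095) between oral mucosa and facial skin at day 4 in epithelial spots, Lce1f between oral sections as a mean over spots (−0.41) and without part 2 of the day 4 section (−1.51; range −1.51 to 1.33 over the parts left out), and Lce3d between facial sections without part 2 of the unwounded one (0.074; range −1.62 to 0.074 over the parts left out).

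The Lce1 share with all Lce1 genes was 32.6% and 25.6% in the oral sections at day 4 and unwounded and 96.5% and 84.7% in the facial ones. Without neutrophil-rich spots it was 58.6% for the 10 members in facial skin labelled unwounded. With TMM scaling 1290 genes were called higher and 1213 lower in oral mucosa at day 4 over unwounded (2581 and 446 without it), 2852 and 3794 in oral mucosa over facial skin unwounded (1411 and 8375), and 2345 and 2535 at day 4 (1563 and 4841). A minimum of 100 UMIs or none kept all these counts within 1.5 times. No facial section spot set with at least 10% keratin UMIs was large enough for a value.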

Other observations

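The wound keratinocyte and small proline-rich lists held 2 further genes that were higher in oral mucosa at day 4 than unwounded when all spots were summed. Krt17, a keratin of wound-edge keratinocytes, had 539 CPM in oral mucosa at day 4 against 32.3 CPM unwounded, and Sprr2e had 40.6 CPM against 0.824 CPM. Il1rn, which encodes the interleukin-1 receptor antagonist, had 97.9 CPM at day 4 against 39.0 CPM. Outside neutrophil-rich spots Krt17 was 3.13-fold higher at day 4, Sprr2e had 4.22 CPM and Il1rn 27.9 CPM at day 4, and of these only Krt17 was still called higher. The oral keratin Krt24 had 3 UMIs at day 4, against 594 UMIs unwounded, and Krt76 had 1 UMI against 85. All 5 measured salivary gland genes were called higher in oral mucosa at day 4 than unwounded, where 20.6% of all genes were.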
